A study of Homo sapiens with 18 samples.

Results

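The valine tRNA genes are the rows of the deposited small RNA table whose name starts with tRNA-Val-, and they number 37 of the 2462 rows. The table holds 584 tRNA genes with a named amino acid. By anticodon, 11 valine genes carry AAC, 19 carry CAC and 7 carry TAC. Most names give the anticodon, then the isodecoder number, then the gene copy. AAC-1-1 and AAC-1-2 are thus copies of the same isodecoder and by this naming scheme code for the same mature tRNA body. The prefix tRNA-Val- is left out from here on. The 37 genes were counted as 27 isodecoders, 7 for AAC, 14 for CAC and 6 for TAC. Of the genes, 7 are named by chromosome and have no isodecoder number. Each of these was counted as an isodecoder of its own here and below, which was not checked by sequence. Small RNA was sequenced from extracellular vesicles and from the cells of HEK293T cultures, a human embryonic kidney line. The 6 groups are vesicles of ATG7-/- cells (clone F2), of ATG12-/- cells (clone D9) and of wild type (WT) cells, and the cells of the same genotypes. Each group has 3 libraries, which the labels call biological replicates, and every culture had been starved of serum for 24 h. Each knockout is 1 clone, so a difference between knockout and WT cannot be told apart from a difference between clones.

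Transfer RNAs carry amino acids to the ribosome and read codons through the anticodon loop. A valine tRNA with the anticodon AAC has its first anticodon base changed to inosine, which lets it read several valine codons, while CAC and TAC tRNAs read chiefly valine codons that end in G and in A. Isodecoders share an anticodon and differ elsewhere in the tRNA body. Valine tRNAs are also known to be cut into fragments, which have been described in extracellular vesicles. ATG7 and ATG12 are needed to attach LC3 and its relatives to membrane lipids, a step of autophagy that has been linked to the loading of RNA-binding proteins into vesicles. The table gives 1 value per gene and does not separate whole tRNAs from fragments.

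Each library was deposited as reads over its own size factor, and such a value is called a normalised read. Reads over all rows of the table numbered 1881080 to 3382605 per vesicle library and 1188388 to 1804089 per cell library. Valine genes held 19666 to 61092 of the reads in vesicle libraries and 18771 to 35194 in cell libraries. A normalised read is a relative measure, so more RNA per vesicle and more vesicles cannot be told apart. Of the 37 genes, 32 reached 10 normalised reads in at least 3 libraries and were tested, 10 for AAC, 17 for CAC and 5 for TAC. The other 5 held few reads over all 18 libraries. CAC-7-1 had 77 reads, CAC-chr1-134 had 91, AAC-chr6-87 had 11, TAC-chr2-6 had 3 and TAC-chr17-24 had 2. Differences are log2 changes of the normalised reads with a pseudocount of 1, given with their standard error (SE). The test was limma's moderated test, adjusted over all features by the method of Benjamini and Hochberg, with genes called below an adjusted p of 0.05. No source used here says how a read with several matching gene copies was assigned, so copies may hold the same reads and are not independent counts.

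All 32 tested valine tRNA genes had reads in every vesicle and cell library, and their levels differed. In vesicles 7 genes stood far above the rest: CAC-1-4, CAC-1-5, CAC-1-6, AAC-1-1, TAC-1-1, TAC-1-2 and TAC-2-1. These 7 were picked for their level in WT vesicles, so what follows on them is a description. They held 86.1% ± 0.81 of the valine normalised reads in ATG7-/- vesicles, 83.0% ± 0.779 in ATG12-/- vesicles and 81.1% ± 0.848 in WT vesicles (SD, n = 3 each). In cells the same 7 genes held 32.6% ± 1.13 in ATG7-/-, 29.1% ± 0.921 in ATG12-/- and 29.9% ± 0.4 in WT (SD, n = 3 each). Their values ran between 2469 and 13064 normalised reads over the 9 vesicle libraries. The highest value of any other valine gene in vesicles was 1048, for CAC-1-1. No such gap was seen in cells, where the same 7 genes spanned 48.3 to 1596 normalised reads and the highest other gene, CAC-8-1, reached 1814.

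**Figure D1:**
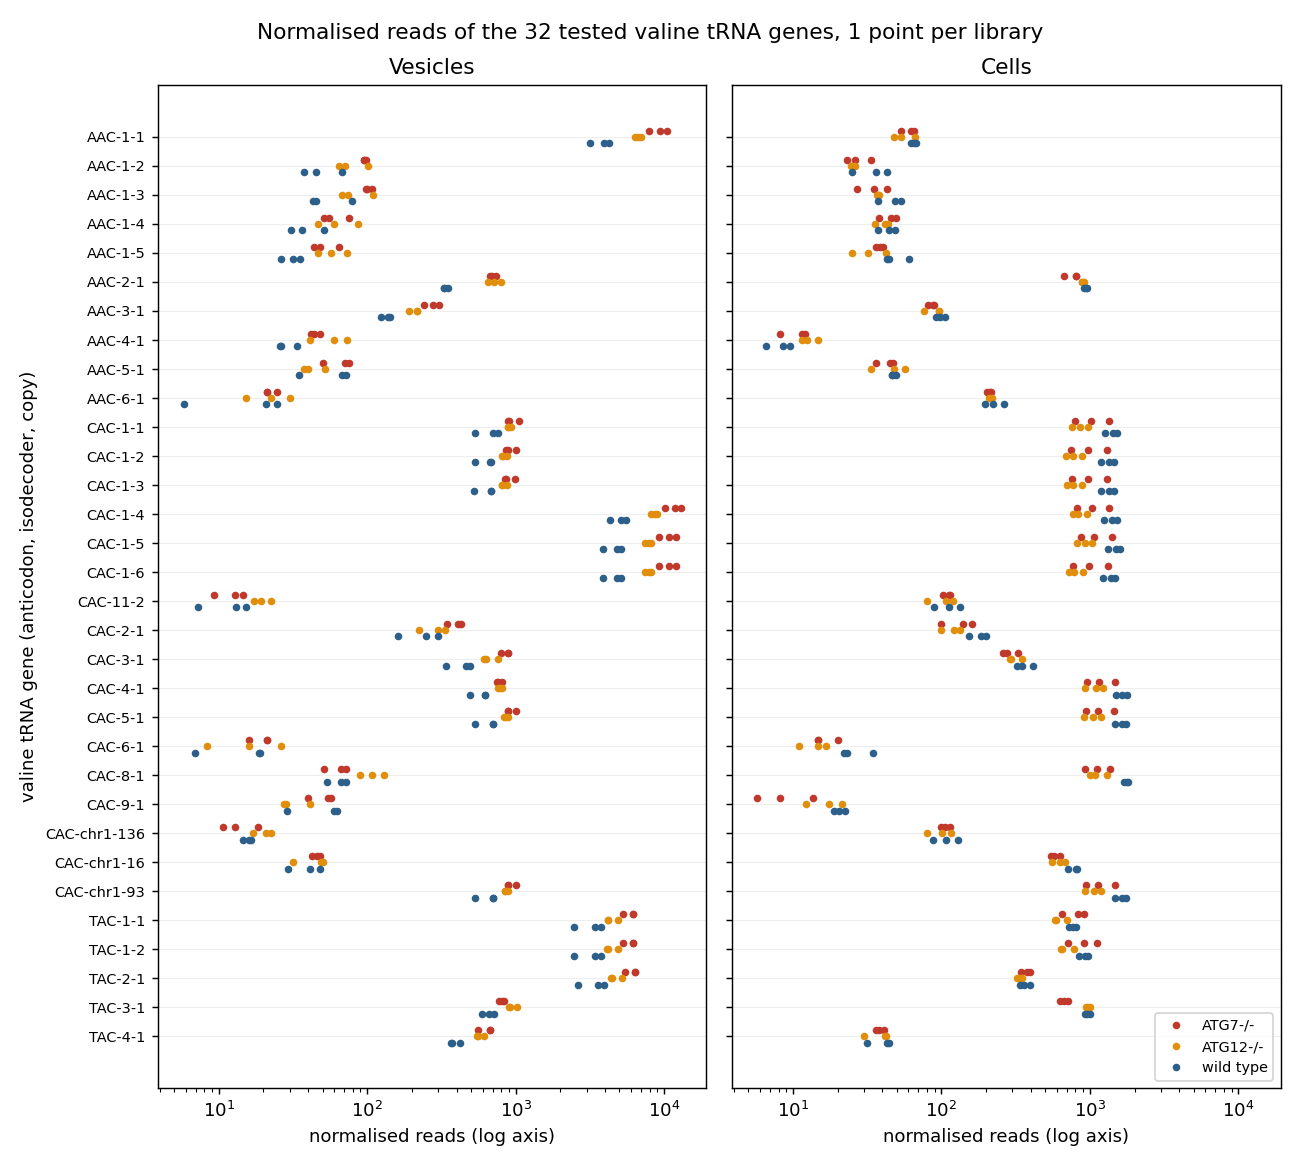
Normalised reads (log axis) of the 32 tested valine tRNA genes in vesicles (left) and cells (right), with 1 point per library, in colour by genotype. In vesicles 7 genes sit at or above 2469 normalised reads and all others at or below 1048, a gap that the cell panel lacks.

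The order of the genes also differed. In WT vesicles the highest means were those of CAC-1-4 (4985), CAC-1-5 (4617), CAC-1-6 (4602) and AAC-1-1 (3771 normalised reads). In WT cells they were those of CAC-8-1 (1761), CAC-4-1 (1642), CAC-chr1-93 (1623) and CAC-5-1 (1615 normalised reads). CAC-4-1, CAC-chr1-93 and CAC-5-1 differ by less than the SD between the WT cell libraries. AAC-1-1 averaged 65.0 ± 2.75 normalised reads in WT cells (SD, n = 3).

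Copies of isodecoders AAC-1 and CAC-1 held very different values in vesicles and closer values in cells. Isodecoder AAC-1 has 5 copies. The mean of its highest copy, AAC-1-1 (RefSeq TRV-AAC1-1, GRCh38 chr3:169772230-169772302, in no annotated GENCODE gene), was 178 times that of its lowest in ATG7-/- vesicles, 113 times in ATG12-/- vesicles and 122 times in WT vesicles. In cells the same ratio was 2.19 in ATG7-/-, 2.19 in ATG12-/- and 1.88 in WT. The other 4 copies lie on chromosomes 5 (AAC-1-2, AAC-1-3 and AAC-1-4) and 6 (AAC-1-5), and none exceeded 109 normalised reads in any vesicle library.

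Isodecoder CAC-1 has 6 copies, and they split into 2 sets of 3 in vesicles. CAC-1-4 (chr5:181173650-181173722), CAC-1-5 (chr5:181222395-181222467) and CAC-1-6 (chr6:26538054-26538126) were high. CAC-1-1 (chr1:161399700-161399772), CAC-1-2 (chr5:181097070-181097142) and CAC-1-3 (chr5:181102253-181102325) were low. The highest copy mean was 12.95 times the lowest in ATG7-/- vesicles, 10.3 times in ATG12-/- vesicles and 7.96 times in WT vesicles, against 1.11, 1.18 and 1.10 times in the cells of the same genotypes. The high copies on chromosome 5 lie among other valine genes of the same cluster. Both copies of TAC-1, on chromosomes 11 and X, were high in vesicles and had a ratio of 1.00 there in all 3 genotypes, against 1.15 in ATG7-/- cells, 1.10 in ATG12-/- cells and 1.19 in WT cells.

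**Figure D2:**
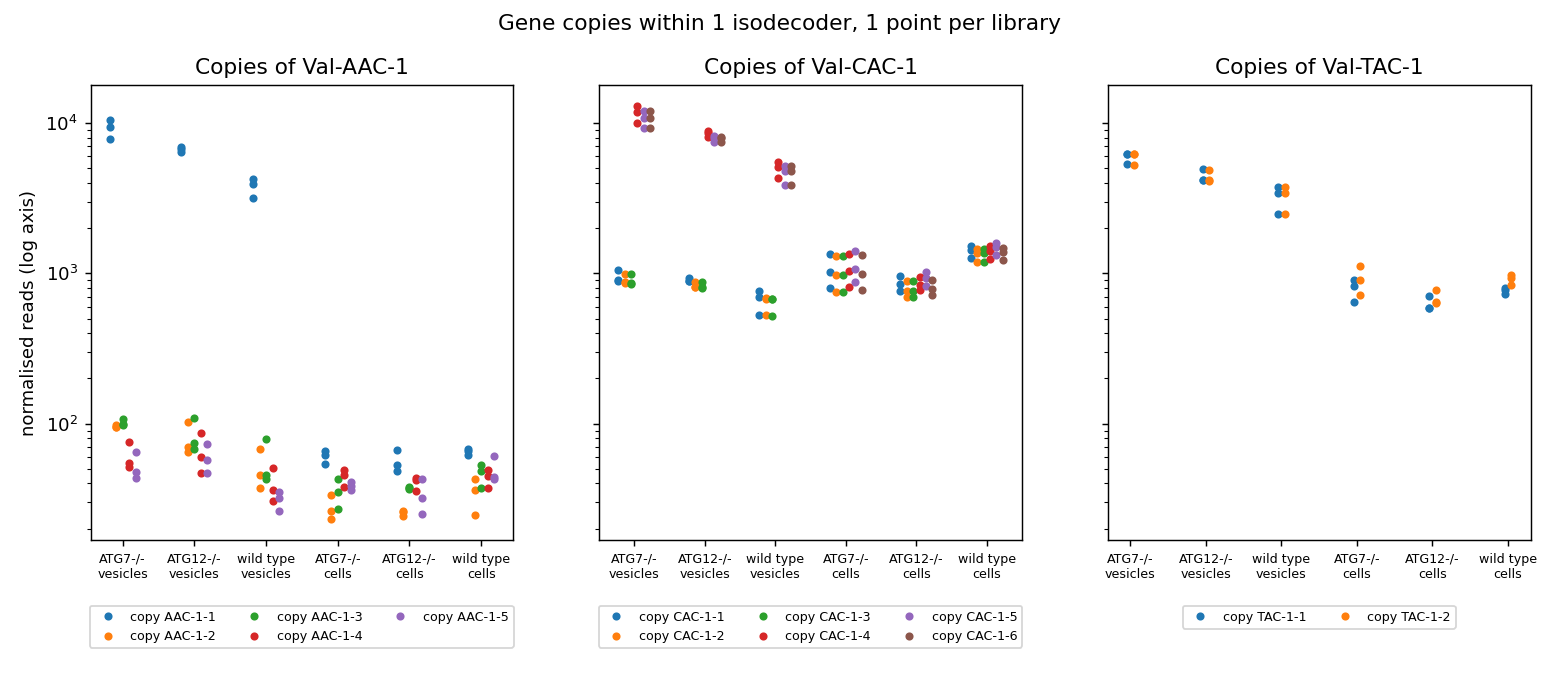
Normalised reads (log axis) of each gene copy of isodecoders AAC-1, CAC-1 and TAC-1 in the 6 groups, with 1 point per library and 1 colour per copy. In vesicles AAC-1-1 and CAC-1-4, CAC-1-5 and CAC-1-6 stand apart from the other copies of their isodecoder, while in cells the copies of CAC-1 lie within a factor of 1.18 of each other by group mean.

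Some rows of the table were nearly equal. CAC-1-5 exceeded CAC-1-6 by 0.0753% to 0.373% in the 9 vesicle libraries and by 7.03% to 17.8% in the 9 cell libraries. TAC-1-1 exceeded TAC-1-2 by 0.0854% to 0.41% in vesicles, but differed from it by -18.4% to -8.45% in cells. CAC-chr1-93, a gene named by its chromosome, differed from CAC-5-1 by -1.18% to 0.824% in vesicles and by 0.398% to 1.55% in cells. Rows of different anticodons were also close in vesicles. CAC-1-6 was 1.15 to 1.22 times AAC-1-1 in the 9 vesicle libraries, against 11.8 to 21.8 times in the 9 cell libraries. TAC-2-1, which lies near TAC-1-1 on chromosome 11, differed from it by 1.72% to 6.59% in vesicles and by -58.1% to -41.6% in cells. Whether the same reads were counted in several rows was not tested, because the table holds no reads.

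The anticodons took different shares of the valine tRNA in vesicles and cells. A share within a library does not depend on its size factor. CAC genes took 57.1% ± 0.846 of the valine normalised reads in ATG7-/- vesicles, 56.9% ± 2.01 in ATG12-/- vesicles and 55.1% ± 0.725 in WT vesicles, against 74.6% ± 2.14 in ATG7-/- cells, 72.0% ± 1.19 in ATG12-/- cells and 78.2% ± 0.805 in WT cells (SD, n = 3 each). TAC genes took 27.7% ± 1.13, 28.1% ± 2.56 and 31.6% ± 1.34 in the vesicles of ATG7-/-, ATG12-/- and WT, against 17.2% ± 0.971, 18.1% ± 0.755 and 14.4% ± 0.385 in their cells. AAC genes took 15.3% ± 0.316, 14.99% ± 0.571 and 13.3% ± 0.625 in the vesicles of ATG7-/-, ATG12-/- and WT, against 8.19% ± 1.19, 9.87% ± 0.67 and 7.39% ± 0.449 in their cells. The vesicle and cell libraries did not overlap for any anticodon.

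Over the 9 vesicle and 9 cell libraries, the vesicle share minus the cell share was -18.6 percentage points for CAC, 12.6 for TAC and 6.03 for AAC. An exact permutation test within genotype, two-sided, gave p = 0.00025 for each, the smallest it can give, and 0.00175 after adjustment over 21 share comparisons. With each isodecoder counted a single time, as the mean of its copies, the AAC difference turned to -0.904 points (adjusted p = 0.116, exact permutation test). Without the 7 high genes, an alternative added after seeing the data, the difference was 2.01 points for AAC (with overlapping libraries), -10.25 for CAC and 8.23 for TAC. Those genes were removed for their level in WT vesicles, so these values are a description and not a test.

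Valine genes took a smaller share of all tRNA in vesicles than in cells. The share was 2.31% ± 0.103 in ATG7-/- vesicles, 2.45% ± 0.0403 in ATG12-/- vesicles and 2.36% ± 0.24 in WT vesicles, against 6.49% ± 1.21, 5.42% ± 0.555 and 8.80% ± 0.525 in the cells of these genotypes (SD, n = 3 each). The difference of vesicles from cells was -4.53 percentage points (p = 0.00025, adjusted p = 0.00175, exact permutation test over 7 comparisons).

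**Figure D3:**
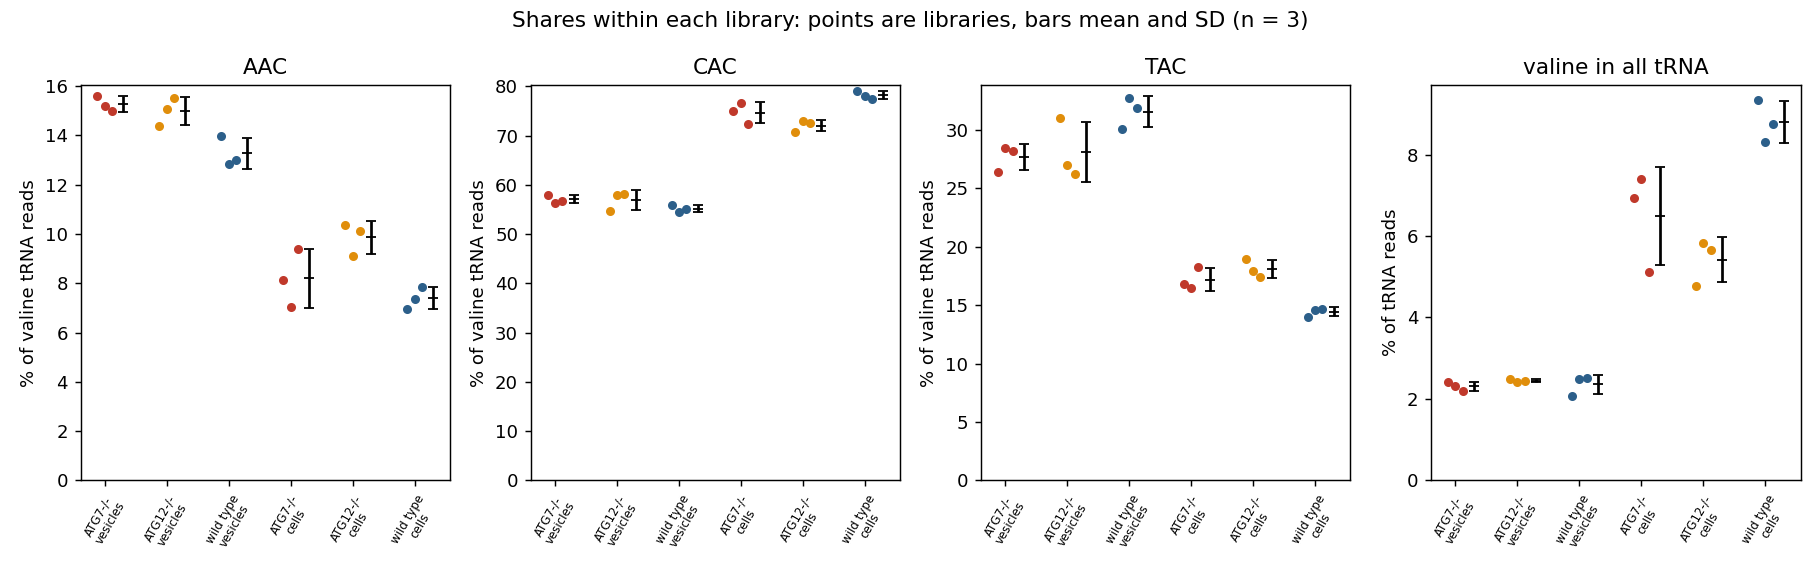
Share of AAC, CAC and TAC genes in valine tRNA, and of valine genes in all tRNA (percent of normalised reads), with 1 point per library and the mean and SD of 3 libraries beside them. Vesicles sit below cells for CAC and for valine in all tRNA and above cells for AAC and TAC, with no overlap.

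Between knockouts and WT the shares moved less. The 6 knockout libraries of vesicles or of cells pool 3 of the ATG7-/- clone with 3 of the ATG12-/- clone. The permutation test on them thus measures spread between libraries and not between clones. In vesicles the AAC share was 15.1% ± 0.439 in the 6 knockout libraries and 13.3% ± 0.625 in the 3 WT libraries, a difference of 1.85 points (p = 0.0119, adjusted p = 0.0417, exact permutation test). The knockout vesicles did not overlap with WT there. CAC differed by 1.84 points (adjusted p = 0.117, exact permutation test) and TAC by -3.69 points (adjusted p = 0.107, exact permutation test). In cells CAC was 73.3% ± 2.1 in the knockouts (n = 6) and 78.2% ± 0.805 in WT (n = 3), a difference of -4.85 points, and TAC was 17.6% ± 0.922 in the knockouts and 14.4% ± 0.385 in WT, a difference of 3.21 points. Both had p = 0.0119 and adjusted p = 0.0417 in the exact permutation test, with no overlap. Without the 7 high genes the differences in cells were -3.72 points for CAC and 1.36 points for TAC. In vesicles that of AAC was 2.81 points. All 3 had overlapping groups and none was called. Those genes were removed for their level in WT vesicles, so this too is a description and not a test. AAC differed by 1.64 points in cells (adjusted p = 0.117, exact permutation test). The share of valine in all tRNA was 5.95% ± 1.02 in knockout cells (n = 6) and 8.80% ± 0.525 in WT cells (n = 3), a difference of -2.85 points (adjusted p = 0.0417, exact permutation test), and in vesicles the difference was 0.0224 points (adjusted p = 0.9). A p of 0.0119 is the smallest that 6 against 3 libraries allow, so no knockout call could remain with a library left out, and 3 against 3 libraries cannot go below 0.1.

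Vesicles were next set against cells gene by gene. Of the 32 tested genes, 17 were higher and 7 lower in ATG7-/- vesicles, 17 higher and 7 lower in ATG12-/- vesicles, and 11 higher and 15 lower in WT vesicles than in the cells. Over all 905 features tested, 40% were called higher and 42.8% lower in ATG7-/-, 39.2% and 41.1% in ATG12-/-, and 38.9% and 42.9% in WT. The median log2 change of the valine genes was 0.51 in ATG7-/-, 0.72 in ATG12-/- and 0.02 in WT, against -0.03, -0.10 and -0.13 over all features and 1.15, 0.84 and 0.64 over the other tRNA genes. The same 11 valine genes were called higher in all 3 genotypes, and the same 6 were called lower. The share of all features called alike in the 3 genotypes was not counted. The 11 include several copies of CAC-1 and both copies of TAC-1, which may hold the same reads. Scaling by library totals shifted the all-feature median by -1.91 in ATG7-/-, -2.07 in ATG12-/- and -1.45 in WT, and the valine genes called higher and lower became 8 and 18, 8 and 22, and 4 and 22.

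In what follows, the 3 values of a group are the normalised reads of its replicates 1, 2 and 3. The other copies of isodecoder AAC-1 differed in their calls. AAC-1-5 was called lower in WT vesicles than in WT cells. AAC-1-2 and AAC-1-3 were called higher in the vesicles of both knockouts, and AAC-1-4 and AAC-1-5 in those of ATG12-/-. Of the AAC genes, AAC-1-1 had the largest rise in vesicles. It had 10515, 9406 and 7881 in ATG7-/- vesicles, 6374, 6715 and 6982 in ATG12-/- vesicles, against 3180, 4220 and 3914 in WT vesicles. In cells it had 53.5, 62.2 and 65.7 in ATG7-/- cells, 48.3, 53.4 and 66.4 in ATG12-/- cells, against 67.5, 65.3 and 62.1 in WT cells. Its log2 change in vesicles over cells was 7.23 (SE 0.15, adjusted p = 4.49e-20) in ATG7-/-, 6.89 (SE 0.15, adjusted p = 1.32e-19) in ATG12-/- and 5.83 (SE 0.15, adjusted p = 8.6e-19) in WT. AAC-3-1 and AAC-4-1, on chromosome 6, were lower in level and also higher in vesicles. AAC-3-1 had 305, 276 and 241 in ATG7-/- vesicles, 215, 215 and 190.4 in ATG12-/- vesicles, against 143, 124 and 139 in WT vesicles, and in cells 81.5, 87.6 and 88.5 in ATG7-/- cells, 76.6, 96.4 and 96.5 in ATG12-/- cells, against 105, 98.3 and 91.99 in WT cells. AAC-4-1 had 43.5, 42.04 and 47.7 in ATG7-/- vesicles, 41.4, 59.7 and 73.5 in ATG12-/- vesicles, against 26.02, 26.3 and 33.6 in WT vesicles, and in cells 11.5, 8.19 and 12.1 in ATG7-/- cells, 11.6, 12.4 and 14.7 in ATG12-/- cells, against 9.56, 8.58 and 6.57 in WT cells. The groups of vesicles and cells did not overlap for either gene. That held for 25 of the 32 tested valine genes in ATG7-/-, 26 in ATG12-/- and 26 in WT, and it was not counted over all features. The log2 change of AAC-3-1 was 1.66 (SE 0.15), 1.20 (SE 0.15) and 0.45 (SE 0.15) in ATG7-/-, ATG12-/- and WT, and with library totals it turned to -0.32, -0.89 and -1.05. That of AAC-4-1 was 1.98 (SE 0.26), 2.06 (SE 0.26) and 1.69 (SE 0.26), and with library totals none of the 3 was called (0.09, 0.04 and 0.27).

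AAC-2-1 and AAC-6-1 went the other way. AAC-2-1, the highest AAC gene in cells, had 734, 693 and 669.7 in ATG7-/- vesicles, 718, 649.7 and 796 in ATG12-/- vesicles, against 351, 329 and 331 in WT vesicles. In cells it had 806, 809 and 665 in ATG7-/- cells, 885, 879.7 and 914 in ATG12-/- cells, against 941, 912 and 959 in WT cells. In WT its vesicles lay well below its cells, and the knockout vesicles lay closer to the knockout cells. Its log2 change was -0.12 (SE 0.12) in ATG7-/- (not called), -0.31 (SE 0.12) in ATG12-/- and -1.47 (SE 0.12, adjusted p = 2.52e-10) in WT. The ATG12-/- call ended without ATG12-/- vesicle replicate 2 (-0.24) or ATG12-/- cell replicate 3 (-0.30). AAC-6-1, whose annotated length is 72 bp where most valine genes have 73 bp, had 21.1, 24.5 and 21.2 in ATG7-/- vesicles, 15.2, 22.5 and 30.2 in ATG12-/- vesicles, against 24.6, 20.7 and 5.84 in WT vesicles, and in cells 203, 211 and 216 in ATG7-/- cells, 212, 219.9 and 209.8 in ATG12-/- cells, against 197, 265 and 221 in WT cells. It was lower in vesicles, with log2 changes of -3.18 (SE 0.33), -3.23 (SE 0.33) and -3.86 (SE 0.33) in ATG7-/-, ATG12-/- and WT. AAC-5-1 had 71.2, 75.9 and 50.4 in ATG7-/- vesicles, 37.2, 51.7 and 39.6 in ATG12-/- vesicles, against 34.7, 67.7 and 71.5 in WT vesicles, and in cells 45.3, 36.03 and 47.1 in ATG7-/- cells, 33.5, 48.2 and 56.6 in ATG12-/- cells, against 46.5, 46.2 and 49.6 in WT cells. Its groups overlapped in part, and its log2 changes were 0.60 (SE 0.26), -0.09 (SE 0.26) and 0.22 (SE 0.26), of which the first was called, and that call ended with any of 4 libraries left out (0.48 to 0.64) and turned to -1.35 with library totals.

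Of the CAC genes, the high copies of CAC-1 were higher in vesicles. The low copies CAC-1-1, CAC-1-2 and CAC-1-3 were called lower in WT vesicles than in WT cells, and were not called in either knockout. CAC-1-4 is named for its mean over the 18 libraries, which its vesicle values raise. Its p-values are thus those of a copy picked in part for its vesicle level. CAC-1-4 had 13064, 11807 and 10083 in ATG7-/- vesicles, 8091, 8634 and 8891 in ATG12-/- vesicles, against 4297, 5537 and 5119 in WT vesicles. In cells it had 1040, 1351 and 813 in ATG7-/- cells, 771, 951 and 835 in ATG12-/- cells, against 1520, 1412 and 1242 in WT cells. Its log2 change was 3.47 (SE 0.17, adjusted p = 7.53e-15) in ATG7-/-, 3.33 (SE 0.17, adjusted p = 2.4e-14) in ATG12-/- and 1.84 (SE 0.17, adjusted p = 9.77e-10) in WT, the last not called with library totals (0.32). CAC-9-1, a minor gene, had 54.1, 57.2 and 39.8 in ATG7-/- vesicles, 27.6, 41.1 and 28.3 in ATG12-/- vesicles, against 28.9, 59.5 and 62.7 in WT vesicles, and in cells 8.24, 5.73 and 13.6 in ATG7-/- cells, 12.2, 21.5 and 17.5 in ATG12-/- cells, against 22.3, 20.4 and 18.98 in WT cells. Its log2 change was 2.39 (SE 0.32), 0.89 (SE 0.32) and 1.18 (SE 0.32) in ATG7-/-, ATG12-/- and WT. The ATG12-/- call ended without ATG12-/- vesicle replicate 2 (0.71) or ATG12-/- cell replicate 1 (0.69), and with library totals the change was 0.51 in ATG7-/-, not called, and turned to -1.12 in ATG12-/- and to -0.29 in WT.

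CAC-2-1 and CAC-3-1 were called higher in the vesicles of both knockouts and were not called in WT. CAC-2-1 had 409, 431 and 345 in ATG7-/- vesicles, 223, 299.7 and 332 in ATG12-/- vesicles, against 162, 300.03 and 249 in WT vesicles, and in cells 140.02, 161 and 99.9 in ATG7-/- cells, 99.1, 133 and 122 in ATG12-/- cells, against 198, 185 and 154 in WT cells. CAC-3-1, which lies at chr19:4724635-4724707 within an annotated exon of DPP9 (strand not considered), had 889, 888 and 799.7 in ATG7-/- vesicles, 612, 632 and 762 in ATG12-/- vesicles, against 337, 495 and 459.6 in WT vesicles, and in cells 329, 259.6 and 278 in ATG7-/- cells, 351, 290.05 and 294 in ATG12-/- cells, against 324, 416 and 348 in WT cells. The log2 changes were 1.58 (SE 0.22), 1.26 (SE 0.22) and 0.36 (SE 0.22) for CAC-2-1 in ATG7-/-, ATG12-/- and WT, and 1.57 (SE 0.16), 1.10 (SE 0.16) and 0.24 (SE 0.16) for CAC-3-1. With library totals all 6 turned negative, between -1.28 and -0.40.

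Several CAC genes were strongly lower in vesicles. CAC-8-1, the highest valine gene in WT cells and 71 bp long in the annotation, had 51.4, 72.4 and 66.3 in ATG7-/- vesicles, 89.6, 107 and 130.1 in ATG12-/- vesicles, against 66.5, 71.9 and 53.98 in WT vesicles. In cells it had 1365, 1119 and 923 in ATG7-/- cells, 1089, 999 and 1299 in ATG12-/- cells, against 1768, 1699 and 1814 in WT cells. Its log2 change was -4.14 (SE 0.18, adjusted p = 1.15e-15), -3.37 (SE 0.18, adjusted p = 6.48e-14) and -4.77 (SE 0.18, adjusted p = 1.66e-16) in ATG7-/-, ATG12-/- and WT. CAC-chr1-16 had 46.2, 47.9 and 42.4 in ATG7-/- vesicles, 31.7, 50.4 and 49.03 in ATG12-/- vesicles, against 47.7, 29.04 and 40.8 in WT vesicles, and in cells 629, 577 and 550.4 in ATG7-/- cells, 558, 679 and 624 in ATG12-/- cells, against 803, 819 and 707 in WT cells. In vesicles it changed by -3.66 (SE 0.19), -3.82 (SE 0.19) and -4.30 (SE 0.19). CAC-11-2, a gene that RefSeq lists as a pseudogene and that lies in an intron of CROCC, had 14.5, 12.8 and 9.28 in ATG7-/- vesicles, 19.3, 17.2 and 22.6 in ATG12-/- vesicles, against 13.01, 15.2 and 7.29 in WT vesicles, and in cells 114, 113 and 103 in ATG7-/- cells, 79.8, 119 and 108 in ATG12-/- cells, against 133, 112 and 89.1 in WT cells. CAC-chr1-136 had 18.5, 12.8 and 10.6 in ATG7-/- vesicles, 20.7, 22.5 and 16.97 in ATG12-/- vesicles, against 15.9, 16.6 and 14.6 in WT vesicles, and in cells 114, 106 and 99.9 in ATG7-/- cells, 80.4, 117 and 101 in ATG12-/- cells, against 129.96, 108 and 88.3 in WT cells. CAC-11-2 differed from CAC-chr1-136 by -0.8% to 6.94% in cells, and both genes were lower in vesicles, with log2 changes of -3.09 (SE 0.25), -2.30 (SE 0.25) and -3.17 (SE 0.25) for CAC-11-2 and -2.88 (SE 0.22), -2.25 (SE 0.22) and -2.70 (SE 0.22) for CAC-chr1-136. None of these 4 genes had overlapping vesicle and cell groups. That also held for most of the tested valine genes, and it was not counted over all features.

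CAC-4-1 and CAC-5-1 on chromosome 1 were lower in WT vesicles by a smaller amount. CAC-4-1 had 803, 751 and 761 in ATG7-/- vesicles, 754, 784 and 803 in ATG12-/- vesicles, against 490.02, 622 and 617 in WT vesicles, and in cells 1146, 1478 and 956 in ATG7-/- cells, 934, 1224 and 1092 in ATG12-/- cells, against 1781, 1658 and 1489 in WT cells. CAC-5-1 had 1010, 886 and 885 in ATG7-/- vesicles, 837, 854 and 888 in ATG12-/- vesicles, against 533, 701 and 706 in WT vesicles, and in cells 1133, 1464 and 936 in ATG7-/- cells, 912, 1182 and 1056 in ATG12-/- cells, against 1742, 1635 and 1467 in WT cells. The log2 changes of CAC-4-1 were -0.61 (SE 0.15), -0.46 (SE 0.15) and -1.51 (SE 0.15), all called, though the ATG12-/- call ended without ATG12-/- cell replicate 2 (-0.37). Those of CAC-5-1 were -0.32 (SE 0.16), -0.28 (SE 0.16) and -1.33 (SE 0.16), of which only the WT change was called. CAC-chr1-93 differed from CAC-5-1 by at most 1.55% in any library, had 998, 886 and 882 in ATG7-/- vesicles, 844, 851 and 888 in ATG12-/- vesicles, against 533, 699.6 and 699 in WT vesicles, and in cells 1142, 1476 and 946 in ATG7-/- cells, 926, 1193 and 1070 in ATG12-/- cells, against 1755, 1643 and 1473 in WT cells. Its changes were -0.34 (SE 0.16), -0.30 (SE 0.16) and -1.34 (SE 0.16), and the call in ATG7-/- ended in 14 of the 18 fits with a library left out. CAC-6-1, a gene of few reads, had 21.1, 21.02 and 15.9 in ATG7-/- vesicles, 8.27, 15.9 and 26.4 in ATG12-/- vesicles, against 18.8, 6.91 and 18.97 in WT vesicles, and in cells 14.8, 14.7 and 19.99 in ATG7-/- cells, 16.7, 10.97 and 14.7 in ATG12-/- cells, against 34.4, 23.1 and 21.9 in WT cells. Its changes were 0.22 (SE 0.38), 0.12 (SE 0.38) and -0.88 (SE 0.38), and the call in WT ended without WT vesicle replicate 2 (-0.44), WT cell replicate 1 (-0.68) or WT cell replicate 2 (-0.96).

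The TAC genes were mostly higher in vesicles. TAC-2-1, at chr11:59550987-59551059, had 6320, 6400 and 5449 in ATG7-/- vesicles, 5177, 4442 and 4412 in ATG12-/- vesicles, against 2642, 3924 and 3585 in WT vesicles. In cells it had 346, 397 and 378 in ATG7-/- cells, 338, 348 and 323 in ATG12-/- cells, against 358, 396 and 340.2 in WT cells. Its log2 change was 4.01 (SE 0.14, adjusted p = 3.94e-17), 3.79 (SE 0.14, adjusted p = 1.91e-16) and 3.19 (SE 0.14, adjusted p = 3.98e-15) in ATG7-/-, ATG12-/- and WT. TAC-1-2, on the X chromosome, had 6196, 6198 and 5298 in ATG7-/- vesicles, 4902, 4191 and 4143 in ATG12-/- vesicles, against 2469, 3754 and 3417 in WT vesicles, and in cells 909, 1115 and 717 in ATG7-/- cells, 639.5, 778 and 648 in ATG12-/- cells, against 969, 926 and 840.4 in WT cells. Its changes were 2.71 (SE 0.17), 2.68 (SE 0.17) and 1.80 (SE 0.17), the last not called with library totals (0.28). TAC-4-1, in an intron of POM121L2 on chromosome 6, had 669, 669 and 561 in ATG7-/- vesicles, 552, 554 and 611 in ATG12-/- vesicles, against 371, 419 and 366 in WT vesicles, and in cells 36.2, 40.9 and 37.8 in ATG7-/- cells, 42.5, 41.98 and 30.1 in ATG12-/- cells, against 43.3, 44.2 and 31.4 in WT cells. It was a minor gene in cells and changed by 4.01 (SE 0.17, adjusted p = 6.41e-16), 3.89 (SE 0.17, adjusted p = 1.79e-15) and 3.26 (SE 0.17, adjusted p = 4.54e-14).

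TAC-3-1, on chromosome 10, was the exception among the TAC genes. It had 836, 808 and 773 in ATG7-/- vesicles, 902, 908 and 1026 in ATG12-/- vesicles, against 597, 716 and 658 in WT vesicles, and in cells 625, 717 and 669 in ATG7-/- cells, 942, 974 and 996 in ATG12-/- cells, against 962, 995 and 921 in WT cells. It was the only tested TAC gene that was lower in WT vesicles than in WT cells, with a log2 change of -0.55 (SE 0.12, adjusted p = 0.000231). In ATG7-/- its change was 0.27 (SE 0.12), a call that ended in 11 of the 18 fits with a library left out and turned to -1.72 with library totals, and in ATG12-/- it was -0.04 (SE 0.12). By anticodon, the median log2 change was 2.90 for TAC, -0.13 for CAC and 1.07 for AAC in ATG7-/-, then 2.82, 0.09 and 0.97 in ATG12-/-, and 2.04, -1.10 and 0.22 in WT.

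Most isodecoders did not keep their ratio to isodecoder 1 of the same anticodon between cells and vesicles. The log2 ratio of each isodecoder sum to isodecoder 1 of its anticodon was compared for 19 pairs. Apart from a pseudocount of 1 added to each sum, which weighs most for isodecoders of few reads, it does not depend on the size factor. All pairs of an anticodon share the same denominator, AAC-1, CAC-1 or TAC-1. Each denominator holds 1 or more of the high vesicle genes, so the pairs are not independent. For 18 of 19 the ratio differed between vesicles and cells (adjusted p = 0.00185, exact permutation test), and for CAC-9 over CAC-1 it did not pass (-0.48, adjusted p = 0.208, exact permutation test). The largest shifts in vesicles minus cells were -8.34 for AAC-6 over AAC-1 and -6.06 for CAC-8 over CAC-1. TAC-2 over TAC-1 and TAC-4 over TAC-1 moved up, by 1.18 and 1.23. Ratios without isodecoder 1 were not tested. The median ratio of CAC-chr1-93 to CAC-5-1 was 0.998 in vesicles and 1.008 in cells. That of CAC-4-1 to CAC-5-1 was 0.888 in vesicles and 1.021 in cells, and that of CAC-11-2 to CAC-chr1-136 was 0.875 and 1.02. Between the 6 knockout and 3 WT libraries 0 of the 19 ratios passed in vesicles or in cells (lowest adjusted p = 0.0688, exact permutation test), and 8 in vesicles and 3 in cells had an unadjusted p under 0.05.

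In the vesicles, most valine tRNA genes were higher in both knockouts than in WT. Of the 32 tested genes, 23 were called higher and 0 lower in ATG7-/- vesicles, where 33.5% of the 850 features tested were called higher and 28.9% lower. In ATG12-/- vesicles 22 were called higher and 0 lower, where 22.6% of features were called higher and 21.1% lower. At an unadjusted p under 0.05 the counts were 24 higher and 0 lower in each, a threshold at which all features were not counted. With edgeR and DESeq2 also 0 were called lower. The median log2 change was 0.63 in ATG7-/- and 0.54 in ATG12-/-, against 0.11 and 0.05 over all features. Among the 427 other tRNA genes, 218 were higher and 4 lower in ATG7-/-, and 111 higher and 35 lower in ATG12-/-. All tRNA together took 77.9% to 82.4% of all reads in ATG7-/- vesicles and 56.4% to 60.5% in ATG12-/- vesicles, against 43.2% to 54.7% in WT vesicles, and its part in the rise of single genes was not tested. Both comparisons use the same 3 WT libraries.

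The scaling set how many genes were called. With library totals 12 genes were higher and 0 lower in ATG7-/- vesicles, and 6 higher and 2 lower (AAC-5-1 and CAC-9-1) in ATG12-/- vesicles, and the all-feature median shifted by -0.36 and -0.34. The counts of genes called higher were 18 and 14 with trimmed-mean (TMM) factors, 20 and 12 with TMM factors from microRNAs, 20 and 21 with edgeR and 20 and 21 with DESeq2. With copies summed to isodecoders 13 and 14 of 22 were higher. Without the 7 high genes 16 and 15 of the other 25 were higher. Without WT vesicle replicate 1, 2 genes were called lower in ATG12-/- vesicles.

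By anticodon, 7 of 10 AAC genes, 11 of 17 CAC genes and 5 of 5 TAC genes were higher in ATG7-/- vesicles, and 6 of 10, 11 of 17 and 5 of 5 in ATG12-/- vesicles. AAC-1-1 changed by 1.30 (SE 0.13, adjusted p = 1.92e-06) in ATG7-/- and 0.84 (SE 0.13, adjusted p = 0.000229) in ATG12-/-, and all 6 knockout vesicle libraries were above all 3 WT libraries. AAC-2-1 changed by 1.05 (SE 0.12, adjusted p = 6.23e-06) and 1.09 (SE 0.12, adjusted p = 1.85e-05). CAC-1-4 changed by 1.23 (SE 0.12, adjusted p = 1.82e-06) and 0.78 (SE 0.12, adjusted p = 0.000229). CAC-3-1 changed by 1.01 (SE 0.16, adjusted p = 7.89e-05) and 0.65 (SE 0.16, adjusted p = 0.00425), and AAC-3-1 by 1.01 (SE 0.14, adjusted p = 4.11e-05) and 0.61 (SE 0.14, adjusted p = 0.00387). For these 5 genes no library left out ended a call in either clone, but with library totals the ATG12-/- calls of CAC-3-1 (0.29) and AAC-3-1 (0.25) ended.

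Of the other called genes, TAC-4-1 and CAC-4-1 also kept both calls with any library left out, but with library totals these calls ended, at 0.33 in ATG7-/- and 0.21 in ATG12-/- for TAC-4-1 and at 0.05 and 0.09 for CAC-4-1. With TMM factors the ATG7-/- call of CAC-4-1 ended as well (0.23), and with TMM factors from microRNAs both of its calls did. Of the 22 named genes, library totals left 7 called higher in ATG7-/- vesicles (AAC-1-1, AAC-2-1, AAC-3-1, CAC-1-4, CAC-3-1, TAC-1-2 and TAC-2-1) and 4 in ATG12-/- vesicles (AAC-1-1, AAC-2-1, AAC-4-1 and CAC-1-4). TAC-4-1 changed by 0.71 (SE 0.13) in ATG7-/- and 0.57 (SE 0.13) in ATG12-/-, TAC-2-1 by 0.86 (SE 0.14) and 0.48 (SE 0.14), and TAC-1-2 by 0.89 (SE 0.15) and 0.48 (SE 0.15). The ATG12-/- calls of TAC-2-1 and TAC-1-2 ended without ATG12-/- vesicle replicate 1 (0.41 and 0.40). CAC-4-1 changed by 0.43 (SE 0.12) and 0.44 (SE 0.12), CAC-5-1 by 0.53 (SE 0.13) and 0.42 (SE 0.13), and CAC-chr1-93 by 0.53 (SE 0.13) and 0.43 (SE 0.13). The ATG12-/- calls of CAC-5-1 and CAC-chr1-93 ended without ATG12-/- vesicle replicate 2 (0.43 and 0.44) or 3 (0.40 and 0.41). AAC-4-1 changed by 0.62 (SE 0.24) and 0.97 (SE 0.24), and its ATG7-/- call ended with any of 5 of the 9 vesicle libraries left out (0.56 to 0.66). TAC-3-1 changed by 0.30 (SE 0.12) and 0.53 (SE 0.12), and its ATG7-/- call ended with any of 8 of the 9 left out and turned to -0.08 with library totals.

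Some genes were called in a single clone or in neither. CAC-2-1 changed by 0.77 (SE 0.22, adjusted p = 0.00728) in ATG7-/- and was not called in ATG12-/-, at 0.29 (SE 0.22). CAC-8-1, the gene with the largest fall in WT vesicles against WT cells, stood at -0.02 (SE 0.20) in ATG7-/- and changed by 0.75 (SE 0.20, adjusted p = 0.00928) in ATG12-/-, a call that ended without ATG12-/- vesicle replicate 3 (0.62). AAC-5-1, AAC-6-1, CAC-6-1, CAC-9-1, CAC-11-2, CAC-chr1-16 and CAC-chr1-136 were called in neither clone, with log2 values between -0.19 and 0.57 in ATG7-/- and between -0.57 and 0.74 in ATG12-/-. None of these 7 exceeded 75.9 normalised reads in any vesicle library.

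**Figure D4:**
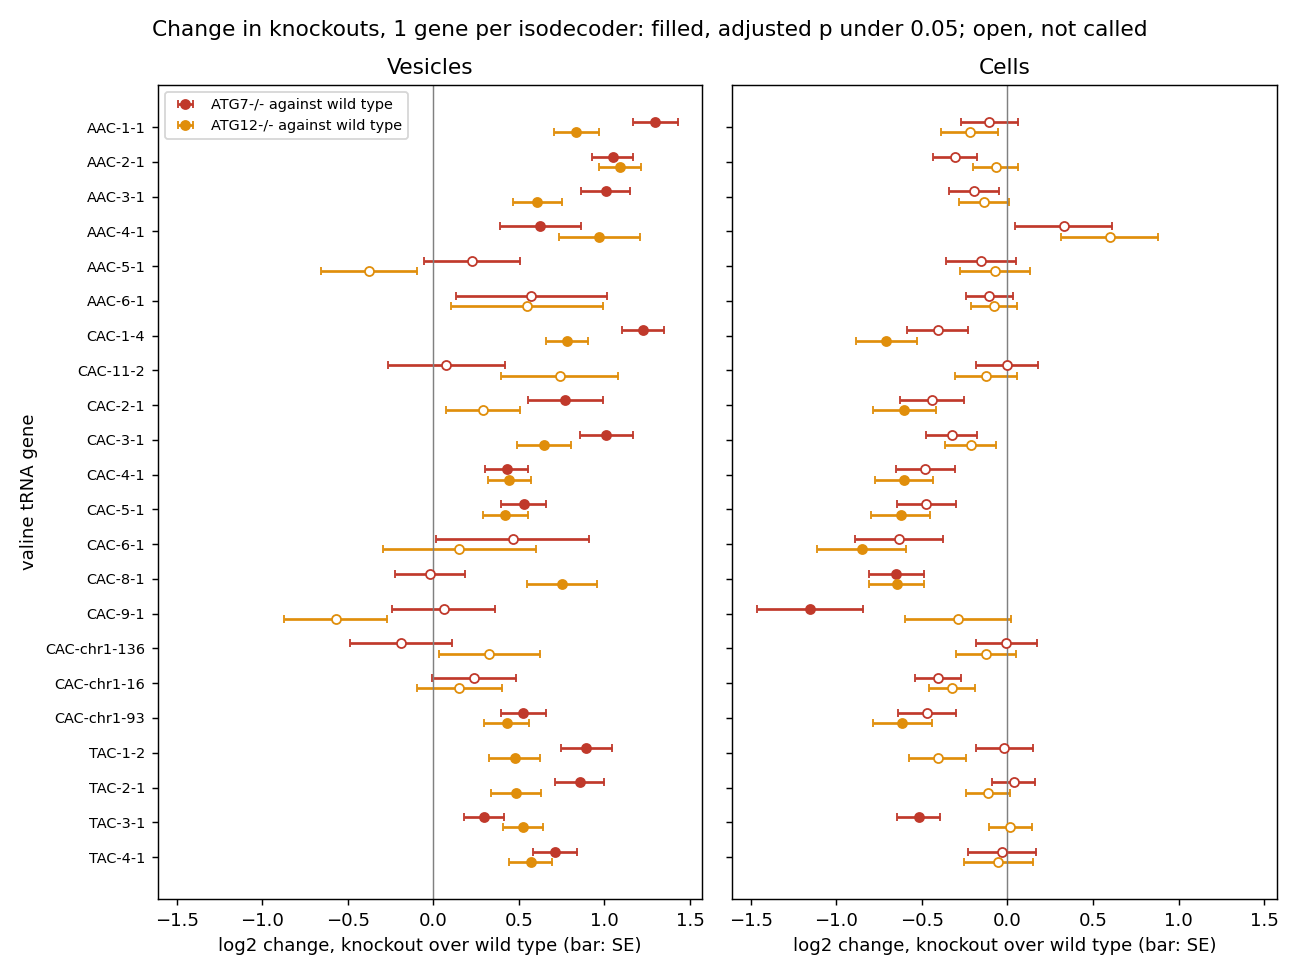
Log2 change of knockout over WT (bars, SE) in vesicles (left) and cells (right) for 22 tested genes, the copy with the highest mean of each isodecoder, with filled points for an adjusted p under 0.05 and 3 libraries per group. In vesicles all filled points lie right of 0, between 0.30 and 1.30, and in cells all lie left of 0, between -1.15 and -0.52.

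In the cells, with the deposited scaling, more valine tRNA genes than the background were called lower in ATG12-/-. In ATG7-/- the share called lower was close to the background. The ATG12-/- count includes copies that may hold the same reads, and it changed with the scaling and with single libraries left out, as given below. In ATG7-/- cells 0 genes were called higher and 3 lower of 32, where 8.44% of the 853 features tested were called higher and 8.32% lower. In ATG12-/- cells 0 were called higher and 12 lower, where 7.5% were called higher and 18.2% lower. At an unadjusted p under 0.05, 17 genes were lower in ATG7-/- and 15 in ATG12-/-, with 0 higher in both. All features were not counted at that threshold, so these counts have no background beside them. edgeR and DESeq2 also called 0 higher. The 12 lower genes in ATG12-/- cells were all CAC genes, 12 of the 17 tested, and 0 of 10 AAC and 0 of 5 TAC genes were called. The median log2 change over the CAC genes was -0.44 in ATG7-/- and -0.63 in ATG12-/-, against -0.17 and -0.12 for AAC, -0.02 and -0.11 for TAC, and -0.09 and -0.13 over all features. Whether the anticodons differ in their change was not tested gene by gene, and the CAC share in cells is given above.

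In ATG12-/- cells all 6 copies of CAC-1 were lower. CAC-1-4 changed by -0.71 (SE 0.18, adjusted p = 0.0136), and in ATG7-/- cells it stood at -0.41 (SE 0.18), not called. CAC-8-1 was lower in both clones, with log2 changes of -0.65 (SE 0.16, adjusted p = 0.0159) in ATG7-/- and -0.65 (SE 0.16, adjusted p = 0.0128) in ATG12-/-, and every knockout cell library lay below every WT cell library. CAC-4-1 changed by -0.61 (SE 0.17), CAC-5-1 by -0.63 (SE 0.17), CAC-chr1-93 by -0.61 (SE 0.17), CAC-2-1 by -0.60 (SE 0.19) and CAC-6-1 by -0.85 (SE 0.26) in ATG12-/-. In ATG7-/- cells these 5 genes stood between -0.63 and -0.44 and were not called. The count of 12 rested on few libraries: it was 1 without WT cell replicate 1, 5 without ATG12-/- cell replicate 1 and 6 without WT cell replicate 2. The calls of CAC-1-4 ended without WT cell replicate 1 (-0.64) or ATG12-/- cell replicate 1 (-0.64), that of CAC-8-1 without ATG12-/- cell replicate 2 (-0.56), and those of the other 5 genes with any of 4 libraries left out. The count was 4 with library totals, 11 with TMM factors, 15 with TMM factors from microRNAs, 7 with edgeR and 10 with DESeq2. With copies summed it was 7 of 22.

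In ATG7-/- cells the called genes were CAC-9-1, CAC-8-1 and TAC-3-1. CAC-9-1, a gene of 5.73 to 13.6 normalised reads in ATG7-/- cells and 19.0 to 22.3 in WT cells, changed by -1.15 (SE 0.31, adjusted p = 0.0231). TAC-3-1 changed by -0.52 (SE 0.12, adjusted p = 0.0145), and in ATG12-/- cells it stood at 0.02 (SE 0.12). The count of 3 became 0 without WT cell replicate 1, 1 without WT cell replicate 2 or 3, and 12 without ATG7-/- cell replicate 2. The call of CAC-8-1 in ATG7-/- cells ended without WT cell replicate 1 (-0.65) or 3 (-0.63), and that of TAC-3-1 without WT cell replicate 1 (-0.52) or 2 (-0.49). The call of CAC-9-1 ended without ATG7-/- cell replicate 2 (-0.89) or WT cell replicate 1 (-1.10), 2 (-1.16) or 3 (-1.21). With TMM factors from microRNAs 25 genes were lower, and that scaling shifted the all-feature median by -0.44. AAC-1-1, which had the largest rise in ATG7-/- vesicles, stood at -0.11 (SE 0.17) in ATG7-/- cells and -0.22 (SE 0.17) in ATG12-/- cells. The other AAC genes named here stood between -0.31 and 0.33 in ATG7-/- cells and between -0.14 and 0.60 in ATG12-/- cells, none called.

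The clones were also compared with each other. In vesicles 1 gene was higher and 8 were lower in ATG12-/- than in ATG7-/-, where 26.6% of 850 features were called higher and 23.3% lower. The gene called higher was CAC-8-1, at 0.77 (SE 0.20, adjusted p = 0.00716). The genes called lower were the 7 high genes and AAC-3-1. AAC-1-1 changed by -0.46 (SE 0.13, adjusted p = 0.0109) and CAC-1-4 by -0.44 (SE 0.12, adjusted p = 0.00955), and both calls ended without ATG7-/- vesicle replicate 1 (-0.36 and -0.35). The count of lower genes was 0 without that library, and 4 or 5 without ATG7-/- vesicle replicate 2 or any 1 of the 3 ATG12-/- vesicle libraries. It was 4 with library totals, TMM factors or edgeR, and 4 of 22 with copies summed. In cells 1 gene was higher, TAC-3-1 at 0.54 (SE 0.12, adjusted p = 0.0109), and 0 were lower, where 5.63% of 853 features were called higher and 14.4% lower. At an unadjusted p under 0.05, 2 genes were higher and 2 lower in cells, a threshold at which all features were not counted. Without ATG7-/- cell replicate 3, 6 genes were called lower in cells.

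The difference between the change in vesicles and the change in cells was tested as an interaction over all 18 libraries. It was positive and called for 25 of 32 genes in ATG7-/-, where 26.3% of the 905 features tested were called positive and 28.7% negative, and for 21 of 32 in ATG12-/-, where 14.4% were positive and 12% negative. None was called negative in either clone. At an unadjusted p under 0.05 the counts were 25 positive and 0 negative in each, a threshold at which all features were not counted. The median was 0.97 in ATG7-/- and 0.89 in ATG12-/-, against 0.08 and 0.10 over all features and 0.63 and 0.20 over the other tRNA genes. Of those other 448 tRNA genes, 203 were called positive in ATG7-/- and 57 in ATG12-/-. CAC-1-4 had the largest value of the named genes in both clones, 1.63 (SE 0.23, adjusted p = 7.05e-06) in ATG7-/- and 1.49 (SE 0.23, adjusted p = 0.000103) in ATG12-/-. With library totals 9 and 5 genes were called positive, and the all-feature median shifted by -0.43 and -0.56, and with edgeR the ATG12-/- count was 13.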

How the data were processed

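Small RNA libraries of 18 samples, 3 biological replicates in each of 6 groups, were made from total RNA with a SMARTer small RNA kit, amplified for 12 PCR cycles and read as 50 bp single ends, per the labels' protocols. The submitters' processing notes name cutadapt 2.3, Bowtie2 2.3, bedtools and DESeq2 and the build GRCh38 (hg38). The order of steps, the tRNA annotation and the handling of reads that match several genes are not given in the sources used here. The deposited values are a normalised signal: every value was a whole multiple of the smallest value of its library (relative tolerance 1e-06), so the authors' values are whole reads divided by 1 factor per library, and reads were recovered from them. ATG7 and ATG12 mRNA were not measured, so the knockout labels were not checked.

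Values were tested as log2(value + 1) with limma 3.58.1 (R 4.3.3), with a mean-variance trend, on features with at least 10 normalised reads in 3 of the libraries fitted. Knockouts were tested within the 9 vesicle or 9 cell libraries, and vesicles against cells and interactions over all 18, with Benjamini-Hochberg adjustment over all features. Shares and isodecoder ratios were compared by two-sided exact permutation of libraries, within genotype for vesicles against cells. Alternatives used edgeR 4.0.16 and DESeq2 1.42.0 on the recovered reads, other scalings, pseudocounts and minimums, summed copies, a replicate block and each library left out. The test scripts were tested on simulated data. By rule, the named genes are the copy with the highest mean of each tested isodecoder. The members, lists and comparisons were chosen with earlier results of these data known. Gene positions are those of RefSeq on GRCh38, matched by name for 28 of the 37 genes, and overlaps are with GENCODE.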

Additional observations from a re-analysis of the deposited data

Results flagged for a closer look

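The results below are those whose knockout change differed between vesicles and cells in the limma interaction test over all 18 libraries (adjusted p under 0.05). Each value is the log2 change in knockout vesicles minus the log2 change in knockout cells, both against WT, and all were positive.

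In ATG7-/- the AAC genes called were AAC-1-1 at 1.40, AAC-2-1 at 1.36 and AAC-3-1 at 1.20. The CAC genes were CAC-1-4 at 1.63, CAC-3-1 at 1.34, CAC-9-1 at 1.22, CAC-2-1 at 1.21, CAC-5-1 at 1.00, CAC-chr1-93 at 1.00, CAC-4-1 at 0.91, CAC-chr1-16 at 0.64 and CAC-8-1 at 0.63. The TAC genes were TAC-1-2 at 0.91, TAC-2-1 at 0.82, TAC-3-1 at 0.82 and TAC-4-1 at 0.74. The calls of CAC-8-1 and CAC-chr1-16 each ended with any of 8 of the 18 libraries left out (0.49 to 0.65 and 0.45 to 0.64), and that of CAC-9-1 with any of 5 (0.86 to 1.16).

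In ATG12-/- the AAC genes called were AAC-2-1 at 1.16, AAC-1-1 at 1.06 and AAC-3-1 at 0.75. The CAC genes were CAC-1-4 at 1.49, CAC-8-1 at 1.40, CAC-4-1 at 1.05, CAC-5-1 at 1.05, CAC-chr1-93 at 1.04, CAC-2-1 at 0.89 and CAC-3-1 at 0.86. The TAC genes were TAC-1-2 at 0.88, TAC-2-1 at 0.60 and TAC-3-1 at 0.51. The call of CAC-2-1 ended with any of 8 libraries left out (0.64 to 0.95), that of TAC-2-1 with any of 7 (0.43 to 0.62) and that of TAC-3-1 with any of 6 (0.45 to 0.51). The interactions of both clones share the WT libraries, and tRNA as a whole took a larger share of the reads in knockout vesicles, whose part in these values was not tested.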

How the results depend on the processing

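Values are numbers of valine genes called, or log2 changes of single genes. With library totals, vesicles against cells gave 8 higher and 18 lower in ATG7-/-, 8 and 22 in ATG12-/-, and 4 higher in WT. ATG7-/- against WT vesicles gave 12 higher, ATG12-/- against WT vesicles 6 higher and 2 lower, ATG12-/- against ATG7-/- vesicles 4 lower, ATG12-/- against WT cells 4 lower, ATG12-/- against ATG7-/- cells 2 higher, and the interactions 9 and 5. The same scaling turned these vesicle over cell changes: in ATG7-/- AAC-3-1 -0.32, AAC-5-1 -1.35, CAC-2-1 -0.40, CAC-3-1 -0.41, CAC-6-1 -1.65 and TAC-3-1 -1.72, in ATG12-/- AAC-3-1 -0.89, CAC-2-1 -0.83, CAC-3-1 -1.001, CAC-6-1 -1.83 and CAC-9-1 -1.12, and in WT AAC-3-1 -1.05, AAC-5-1 -1.27, CAC-2-1 -1.15, CAC-3-1 -1.28 and CAC-9-1 -0.29. It also turned TAC-3-1 to -0.079 in ATG7-/- against WT vesicles and to -0.076 in the ATG12-/- interaction. TMM factors gave 14 higher in ATG12-/- against WT vesicles, and 2 higher and 4 lower in ATG12-/- against ATG7-/- vesicles. TMM factors from microRNAs gave 12 higher in ATG12-/- against WT vesicles, 25 lower in ATG7-/- against WT cells, where TAC-2-1 turned to -0.40, and 3 higher in ATG12-/- against ATG7-/- cells. edgeR gave 11 lower in ATG7-/- vesicles against cells, 2 higher and 4 lower in ATG12-/- against ATG7-/- vesicles, 7 lower in ATG12-/- against WT cells and 13 in the ATG12-/- interaction. With copies summed, which leaves 22 units to test, the counts were 10 higher in ATG12-/- vesicles against cells, 13 and 14 higher in ATG7-/- and ATG12-/- against WT vesicles, 4 lower in ATG12-/- against ATG7-/- vesicles, 7 lower in ATG12-/- against WT cells, and 16 and 13 in the interactions. Why the counts and values differed was not tested for any alternative.

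With each isodecoder counted a single time, the AAC share of vesicles minus cells turned to -0.904 points, and the knockout differences stood at the threshold (adjusted p = 0.05 each, exact permutation test), so they no longer passed: AAC in vesicles 1.91 points, CAC in cells -5.23 and TAC in cells 3.21. Without the 7 high genes they were 2.81, -3.72 and 1.36 points and did not pass. Those genes were removed for their level in WT vesicles, so this is a description and not a test.

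Same-numbered samples shared little deviation from their group means: of 45 same-numbered pairs, 9 had a correlation of deviations over 0.1 (range -0.225 to 0.198). Differently numbered pairs were not compared, so these values cannot show whether the cultures were paired. The fit with the replicate block gave 4 lower in ATG12-/- against ATG7-/- vesicles. Under the block the share differences of 1.85 (AAC, vesicles), -4.85 (CAC, cells), 3.21 (TAC, cells) and -2.85 points (valine in tRNA, cells) are the same values and could not pass, since 8 arrangements under the block allow no p below 0.25.

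With a library left out, the counts ranged over 0 to 12 lower in ATG12-/- against ATG7-/- vesicles, 1 to 2 higher and 0 to 6 lower in ATG12-/- against ATG7-/- cells, 1 to 13 lower in ATG12-/- against WT cells, 0 to 2 lower in ATG12-/- against WT vesicles and 0 to 12 lower in ATG7-/- against WT cells. The knockout share differences ranged over 1.63 to 2.21 points for AAC in vesicles, -5.49 to -4.32 for CAC in cells, 2.96 to 3.45 for TAC in cells and -3.14 to -2.57 for valine in tRNA in cells, and none passed, because fewer libraries raise the smallest p. Some genes had few reads, such as CAC-9-1 with 5.73 to 22.3 normalised reads in cells, and the part of depth in their calls was not tested.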
